A study of Mus musculus with 6 samples.

Results

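Mitochondrial ribosomal proteins are the nuclear-encoded proteins of the ribosome inside mitochondria. They were taken as every gene whose symbol starts with Mrpl or Mrps and a digit, which gave 77 of the 19938 genes measured on the array, 48 named for the large subunit and 29 named for the small subunit. The tissue was frontal cortex of both hemispheres, from 129S6/SvEv mice of wild-type genotype aged 8 to 12 weeks. One group of 3 libraries came from mice that received SAHA (suberoylanilide hydroxamic acid, vorinostat, an inhibitor of zinc-dependent histone deacetylases) at 20 mg per kg by intraperitoneal injection for 21 days, and the other group of 3 came from mice that received vehicle, called saline in the sample titles. Mice were killed 1 day after the final dose, and each library was hybridised to 1 whole-transcript array. The labels do not say that each library is a separate mouse, so the p-values speak of the spread among the libraries alone, which may be technical.

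The mitochondrial ribosome translates the few messages of the mitochondrial genome, which encode core subunits of the respiratory chain and of ATP synthase. Its RNAs come from mitochondrial DNA, while its proteins are translated in the cytosol and imported, so that nuclear genes and the mitochondrial genome have to supply it together. Compared with its bacterial ancestor it has less RNA and many added proteins. Neurons depend on respiration for synaptic signalling, and inherited defects of several of these proteins cause encephalopathy or cardiomyopathy in humans.

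Signals are log2 values of the probe sets, and every difference is SAHA minus saline on that scale. Signals of different probe sets were not compared as levels of the genes, because probes differ in how well they hybridise. In whole tissue, fewer cells of a type and less RNA per cell cannot be told apart. Across libraries, the lowest correlation within a group was 0.995 and the highest between groups 0.994, over genes, which are not independent replicates. Saline replicate 1 stood apart in Xist, the RNA of the inactive X chromosome, with a signal of 10.9 against 4.63 to 4.88 in the other 5 libraries. SAHA replicate 3 had the Y-linked gene Uty at 6.74, against 7.93 to 8.24 in the other 5. In saline replicate 1, Uty was at 8.19, so that library held both signals. The main counts are also given without these 2 libraries. The 5 neuronal markers checked for the tissue label had a median signal of 12.4.

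The promoters of the 4 members of smallest p are shown. The choice was by p alone, and only Mrpl42 stood apart (unadjusted p = 0.000485 in limma). The last of the 4, Mrps17, had an unadjusted p of 0.0102 in limma, close to the next member, Mrps26, at 0.0103. The sequences are those of RefSeq on GRCm38.p6, from 250 bases before to 50 bases after the start of the gene. Capitals mark matches on either strand to the cores of 3 factors known to drive nuclear genes for mitochondrial proteins: CCGGAAG for ETS factors such as GABP, GCATGCGC for NRF1, and AAGATGG for YY1.
Mrpl42, chr10:95501900-95502199, minus strand: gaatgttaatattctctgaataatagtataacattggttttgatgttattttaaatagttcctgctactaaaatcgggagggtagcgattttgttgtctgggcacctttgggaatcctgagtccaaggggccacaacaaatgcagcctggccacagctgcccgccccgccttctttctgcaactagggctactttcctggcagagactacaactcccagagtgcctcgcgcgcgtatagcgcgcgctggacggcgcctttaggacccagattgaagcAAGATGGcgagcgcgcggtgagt
Mrps18b, chr17:35916391-35916690, minus strand: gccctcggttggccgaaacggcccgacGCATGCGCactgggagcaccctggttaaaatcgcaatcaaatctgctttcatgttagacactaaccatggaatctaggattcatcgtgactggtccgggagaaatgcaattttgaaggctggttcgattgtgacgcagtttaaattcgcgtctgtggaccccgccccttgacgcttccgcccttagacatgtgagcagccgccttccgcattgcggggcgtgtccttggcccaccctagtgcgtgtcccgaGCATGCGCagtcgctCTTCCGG
Mrps21, chr3:95871465-95871764, minus strand: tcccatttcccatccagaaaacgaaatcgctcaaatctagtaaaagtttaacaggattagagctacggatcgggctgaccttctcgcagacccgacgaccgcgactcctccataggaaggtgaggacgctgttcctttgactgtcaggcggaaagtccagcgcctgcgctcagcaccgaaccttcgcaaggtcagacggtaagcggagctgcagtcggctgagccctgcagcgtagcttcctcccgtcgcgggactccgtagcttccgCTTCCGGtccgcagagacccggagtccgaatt
Mrps17, chr5:129715247-129715546, plus strand: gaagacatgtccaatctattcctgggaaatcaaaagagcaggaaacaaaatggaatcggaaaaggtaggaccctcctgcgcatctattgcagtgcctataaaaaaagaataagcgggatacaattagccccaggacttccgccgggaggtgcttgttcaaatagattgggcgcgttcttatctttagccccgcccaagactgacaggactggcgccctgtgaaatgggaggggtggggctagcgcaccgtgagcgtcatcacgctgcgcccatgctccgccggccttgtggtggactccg

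The promoter of Mrpl42 held 1 match, the YY1 core just downstream of the start. That of Mrps18b held 3, an ETS core and a pair of NRF1 cores, and that of Mrps21 held 1, an ETS core. The Mrps17 promoter held none of the 3, which says only that these letters are not in this window. Promoters were matched for 68 of the 77 members. The ETS core was in 36.8% of them, against 12.9% of 17491 protein-coding genes in the same table. The NRF1 core was in 11.8% of member promoters, against 3.9% of protein-coding genes, and the YY1 core in 19.1%, against 7.2%. At least 1 of the 3 was in 37 of the 68 promoters, or 54.4%, against 21.8% of protein-coding genes. The TATA box, TATAAA, was in 7.4% of member promoters, against 14.8%. The median difference was -0.10 in the members with an ETS core and -0.060 in those without. For NRF1 it was -0.029 with the core and -0.086 without, and for YY1 -0.11 with the core and -0.083 without. These are descriptions of letters in a window and were not tested.

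Most mitochondrial ribosomal protein genes had a slightly lower signal in SAHA than in saline. The difference was negative for 60 of the 77 genes, or 77.9%, against 47.1% of all genes. After median centring 89.6% of the members were lower, against 57.7% of all genes. With quantile normalization the shares were 61.0% of the members and 49.4% of all genes, and with cyclic loess they were 62.3% of the members and 49.7% of all genes. The members' median difference was negative under each of these scalings. The median over the 77 genes was -0.075, where the median over all genes was 0.011, and the differences ran from -0.36 to 0.083. The size was small: 32 members were below -0.10 and 45 lay within 0.10 of zero. None of the members passed the test across all genes: limma with Benjamini-Hochberg adjustment called 0 members at an adjusted p under 0.05, as it called 0% of the 19938 genes.

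At an unadjusted p under 0.05, 13 members were lower, or 16.9%, and 0 were higher. Among all genes 5.56% were lower at that threshold and 11.9% were higher. Genes of the same signal were taken as those in the same decile of mean signal as each member, and their shares were averaged over the members. Among them 8.62% were lower and 4.91% were higher. All 3 SAHA values lay below all 3 saline values for 22 members, or 28.6%, against 10.4% of all genes and 16.5% of genes of the same signal. All 3 SAHA values lay above all 3 saline values for 0 members, against 13.6% of all genes. That share was not matched for signal, and at the unadjusted threshold fewer genes of the same signal were higher, 4.91% against 11.9%. The count of 13 depended on the libraries. It was 7 without saline replicate 1, where 3.51% of all genes were lower at that threshold, and 4 without saline replicate 1 and SAHA replicate 3, where 2.96% of all genes were. A variance trend gave 20, where 8.63% of all genes were lower. The members' median difference was -0.057 without both libraries, with 55 genes lower.

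Blood cell genes (Alas2, Slc4a1, S100a8, S100a9) differed in the opposite direction in the same libraries. All 4 had a positive difference, with a median difference of 0.30 and 3 at an unadjusted p under 0.05. These genes are dim, and at the same signal 29.1% of genes were lower, 19.1% were higher at that threshold, and the median decile difference was 0.106. Their mean log2 signal ran from 6.09 to 6.19 in SAHA libraries and from 5.80 to 5.95 in saline libraries. Their part in the shift of the mitochondrial ribosomal proteins was not tested.

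**Figure D1:**
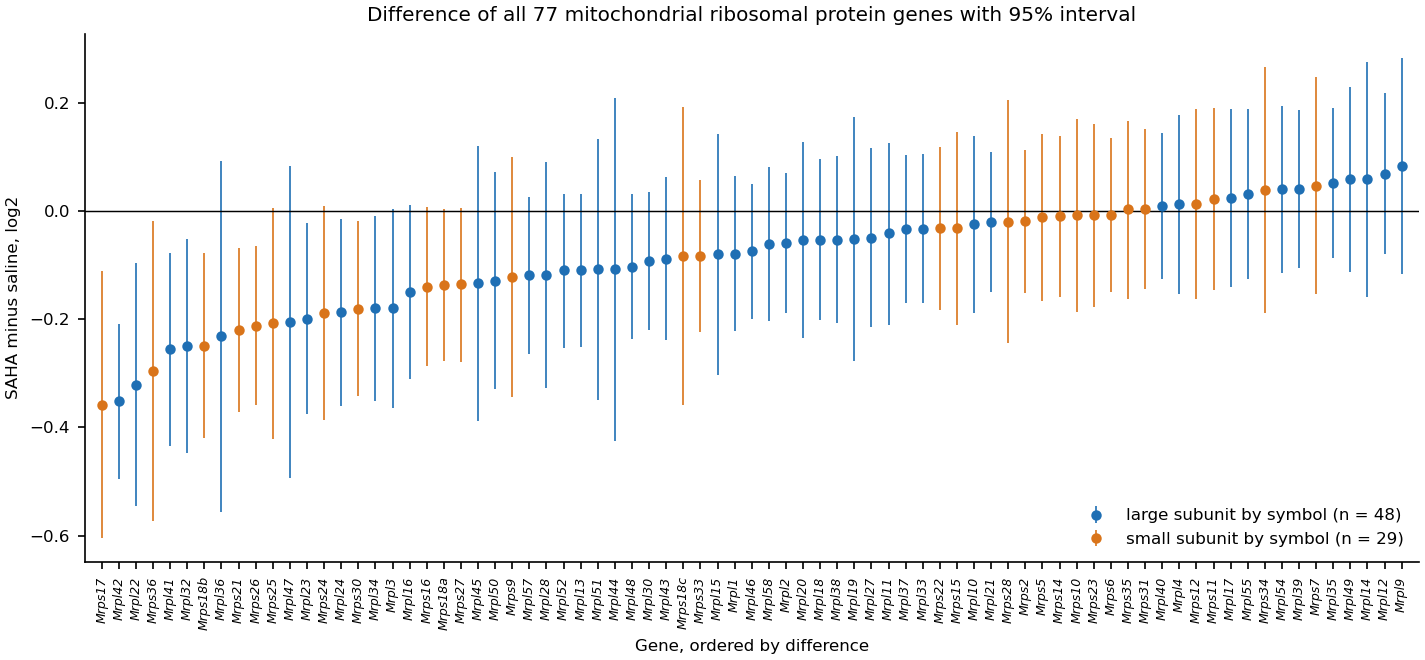
Difference of each of the 77 genes, SAHA minus saline on the log2 scale, with its 95% interval from the limma fit, in order of the difference; blue points are genes named for the large subunit and orange points those named for the small subunit. 60 of the points lie below zero, the members of each subunit are spread along the whole order, and the 17 genes above zero all have intervals that include it.

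The direction followed the signal over the whole array, so the members were also set against genes of the same signal. The median difference of all genes was 0.11 in the second-dimmest decile and -0.051 in the brightest. The members lay in the brighter deciles, with 74 of 77 above the median signal of all genes. The median over the members of the difference minus that of the decile was -0.044. With quantile normalization this value was -0.050, and with cyclic loess it was -0.044. In single libraries, this remainder, relative to the saline mean, was -0.053, -0.030 and -0.049 in SAHA replicates 1 to 3, against 0.029, 0.015 and -0.0355 in saline replicates 1 to 3. Saline replicate 3 lay below SAHA replicate 2, so the groups overlapped. In genes of the same signal, 63.6% were lower, against 77.9% of the members. The gap was not even over the deciles, of which decile 10 was the brightest. The 16 members in decile 6 had a median of -0.070, where all genes had 0.019. The 24 in decile 8 had -0.0725 against -0.050, the 13 in decile 9 had -0.0495 against -0.059, and the 8 in decile 10 had -0.068 against -0.051. In decile 9, 11 members were lower, against 77.8% of all genes, and in decile 10, 6 were, against 82.6%.

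**Figure D2:**
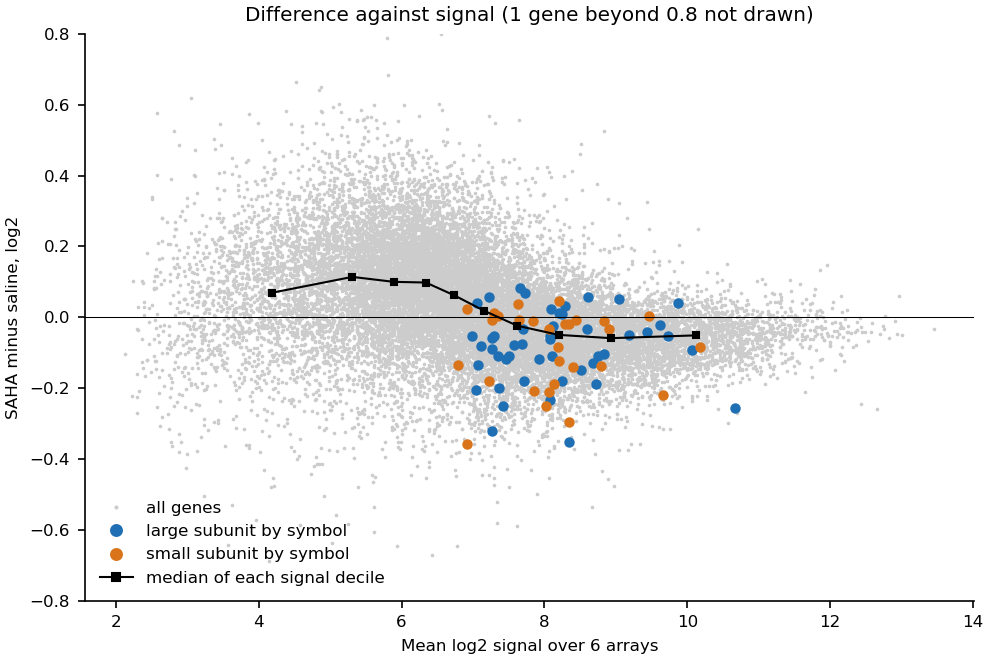
Difference (SAHA minus saline, log2) against mean log2 signal over the 6 arrays, with all genes in grey, large-subunit members in blue, small-subunit members in orange and the median of each signal decile as black squares; 1 gene beyond 0.8 is not drawn. The decile medians are above zero for dim genes and below zero for bright genes, and most members lie under the black line.

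Large and small subunit genes had close shares of lower genes, and the difference between the subunits was not tested. The median difference was -0.077 in the 48 genes of the large subunit and -0.0325 in the 29 genes of the small subunit, and the share of lower genes was 77.1% in the large and 79.3% in the small subunit. At an unadjusted p under 0.05, 7 large-subunit genes (14.6%) and 6 small-subunit genes (20.7%) were lower. In genes of the same signal, 64.1% were lower for the large and 62.6% for the small subunit. The shares lower at that threshold were 8.65% and 8.56%. The median of the large subunit in single libraries, relative to the saline mean, was -0.090, -0.0515 and -0.048 in SAHA replicates 1 to 3, against 0.0365, 0.029 and -0.054 in saline replicates 1 to 3. For the small subunit it was -0.12, -0.0445 and -0.066 in SAHA, against 0.038, -0.00065 and -0.035 in saline. By symbol, the groups overlapped for the large subunit and did not for the small one. Taken within each library, the large-subunit median minus the small-subunit median was 0.033, -0.0070 and 0.019 in SAHA, against -0.0019, 0.030 and -0.020 in saline, with overlap. The large minus small difference of the medians over genes, -0.044, was not stable: it lay between -0.0245 and 0.023 when 1 library was left out and was 0.00051 with every probe set counted. Mrps18a and Mrps30 are named for the small subunit but sit in the large one, and Mrps36 is now known as a subunit of the alpha-ketoglutarate dehydrogenase complex. With the genes placed by these seats, the medians were -0.080 in 50 large-subunit genes and -0.026 in 26 small-subunit genes. By seat it was the small subunit whose library medians overlapped, with SAHA replicate 2 at -0.0345 and saline replicate 3 at -0.039, while those of the large subunit did not, with SAHA at most at -0.0555 and saline at least at -0.044.

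**Figure D3:**
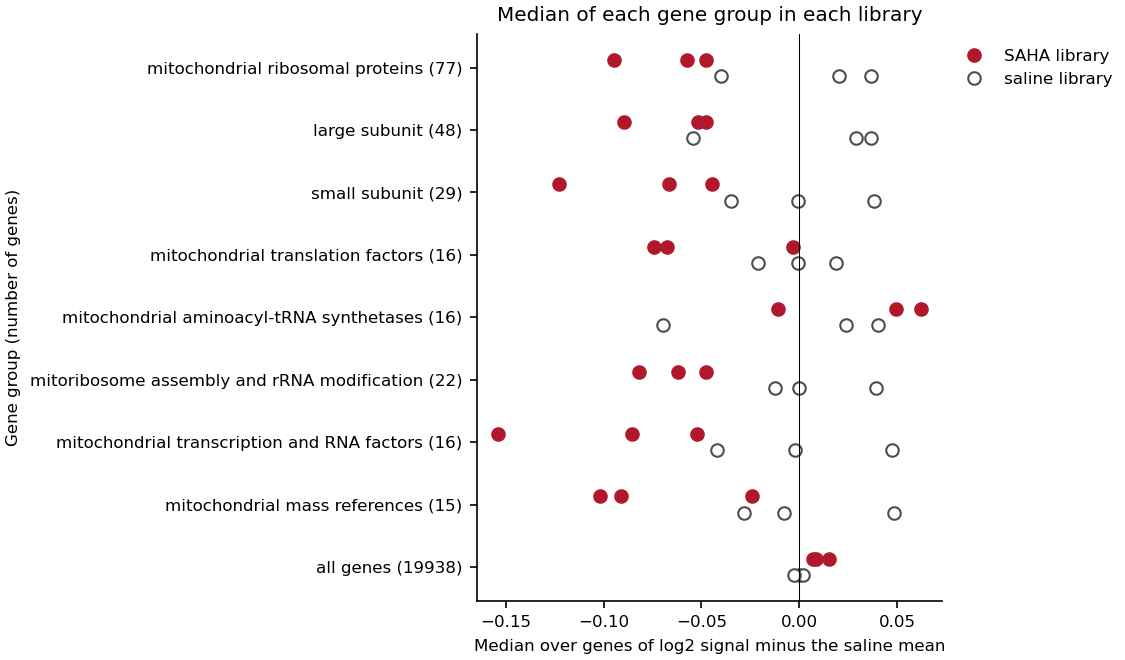
Median over the genes of a group of the log2 signal minus the saline mean of each gene, for each SAHA library (filled, red) and each saline library (open, grey), with the number of genes in parentheses. For the mitochondrial ribosomal proteins the SAHA medians run from -0.095 to -0.048 and the saline medians from -0.040 to 0.037, while in the large subunit saline replicate 3 lies among the SAHA libraries.

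Proteins of the large subunit that have no bacterial counterpart included the gene of smallest p. Mrpl42, one of these added proteins, had signals of 8.11, 8.21 and 8.17 in the SAHA libraries, against 8.49, 8.58 and 8.48 in the saline libraries. The groups did not overlap, and the gap between them was wider than the range of either. The difference was -0.35 (SE 0.062, 95% interval -0.495 to -0.21, adjusted p = 0.116 in limma), a level 1.28-fold higher in saline, and the gene ranked 82 by p among all genes. It passed the adjusted threshold with a variance trend (adjusted p = 0.0337 in limma, where 0.14% of all genes were called), with a robust trend (adjusted p = 0.0364 in limma, 0.155% of all genes) and when the genes under the median signal were dropped (adjusted p = 0.0427 in limma, 0.271% of the genes left). The difference stayed between -0.39 and -0.30 over the 18 alternatives, and the adjusted p in limma or the plain test lay between 0.0337 and 0.389.

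Mrpl41, another added protein of the large subunit, was at 10.53, 10.59 and 10.46 in SAHA, against 10.92, 10.75 and 10.69 in saline. The groups did not overlap, and the difference was -0.26 (SE 0.077, adjusted p = 0.181 in limma). Without saline replicate 1 and SAHA replicate 3 the difference was -0.155. A second probe set of this gene differed by -0.033, so its probe sets disagreed in size. Mrpl44, which resembles an RNase III, was at 7.04, 7.46 and 7.38 in SAHA, against 7.51, 7.53 and 7.16 in saline. SAHA replicate 1 and saline replicate 3 were the low ones, and the groups overlapped. Mrpl45, which anchors the ribosome at the inner membrane, was at 7.03, 6.91 and 7.05 in SAHA, against 7.02, 7.39 and 6.99 in saline, where saline replicate 2 alone was high. Over the 18 measured genes of this class the median difference was -0.096, with 14 (77.8%) lower, and of these Mrpl42 and Mrpl41 (11.1% of the class) were at an unadjusted p under 0.05. Matched for signal, 65.0% of genes were lower and 8.58% were lower at that threshold.

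Large-subunit proteins with a bacterial counterpart had a median of -0.060 over 29 genes, with 23 (79.3%) lower and 5 (17.2%) at an unadjusted p under 0.05. Genes of the same signal were lower in 63.4%, and in 8.62% at that threshold. Among the 5 genes at that threshold, Mrpl22, Mrpl23 and Mrpl24 lie near the exit tunnel, through which the nascent protein leaves. They are grouped here because of their p, and the genes of that region were not counted as a set. Mrpl44 and Mrpl45, listed by role with the exit tunnel and membrane side, overlapped between the groups. Mrpl22 was at 7.20, 7.0 and 7.11 in SAHA, against 7.49, 7.55 and 7.23 in saline, and differed by -0.32 (SE 0.097, adjusted p = 0.181 in limma). Mrpl23 was at 7.30, 7.37 and 7.12 in SAHA, against 7.48, 7.42 and 7.49 in saline, and differed by -0.20 (SE 0.076, adjusted p = 0.247 in limma). Mrpl24 was at 8.58, 8.67 and 8.61 in SAHA, against 8.85, 8.90 and 8.68 in saline, and differed by -0.19 (SE 0.075, adjusted p = 0.257 in limma). In all 3 genes the groups did not overlap, though the gap to saline replicate 3 in Mrpl22 and Mrpl24 was narrow, and Mrpl23 differed by -0.13 without SAHA replicate 3. Mrpl32, whose precursor is cut by a protease of the inner membrane before assembly, was at 7.11, 7.36 and 7.41 in SAHA, against 7.56, 7.53 and 7.54 in saline. SAHA replicate 1 was the low library, and the difference of -0.25 (SE 0.086) was -0.16 without it. Mrpl34, named after its values were seen, was at 7.58, 7.61 and 7.66 in SAHA, against 7.90, 7.67 and 7.82 in saline. Its groups did not overlap but nearly met, with the highest SAHA value just under the lowest saline value.

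In the stalk of the large subunit, which recruits the translation factors, the groups overlapped in each of the 3 genes named. Mrpl12, the repeated stalk protein, was at 7.72, 7.75 and 7.83 in SAHA, against 7.76, 7.70 and 7.63 in saline, a difference of 0.069 (95% interval -0.081 to 0.22). Mrpl10, which holds the stalk to the ribosome, was at 8.17, 8.09 and 8.07 in SAHA, against 8.19, 8.20 and 8.02 in saline, a difference of -0.025 (95% interval -0.19 to 0.14). Mrpl11, at the base of the stalk, was at 9.36, 9.45 and 9.41 in SAHA, against 9.57, 9.35 and 9.42 in saline, a difference of -0.042 (95% interval -0.21 to 0.13). The sign of Mrpl10 and Mrpl11 turned after quantile and cyclic loess normalization.

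Small-subunit proteins with a bacterial counterpart had a median of -0.020 over 17 genes, with 14 (82.35%) lower and 3 (17.65%) at an unadjusted p under 0.05, Mrps17, Mrps21 and Mrps18b. Genes matched for signal were lower in 63.3%, and in 9.12% at that threshold. The sign of the class median turned under other scalings, at 0.0082 after quantile and 0.0028 after cyclic loess normalization. Mrps17, a protein that binds the ribosomal RNA, was at 6.94, 6.70 and 6.55 in SAHA, against 7.14, 7.16 and 6.97 in saline. It had the greatest difference of the set, -0.36 (SE 0.11, adjusted p = 0.177 in limma), a level 1.28-fold higher in saline. SAHA replicate 1 lay just under saline replicate 3, and the difference was -0.27 without SAHA replicate 3 and -0.40 after quantile or cyclic loess normalization. Mrps21 was at 9.64, 9.51 and 9.5 in SAHA, against 9.78, 9.82 and 9.71 in saline, and differed by -0.22 (SE 0.066, adjusted p = 0.177 in limma). Mrps12, a protein of the decoding centre, where codon and anticodon meet, was at 7.36, 7.16 and 7.38 in SAHA, against 7.26, 7.35 and 7.25 in saline. Its groups overlapped, with a difference of 0.013 (95% interval -0.16 to 0.19). Mrps11, one of the dimmest probe sets of the set, was at 6.91, 7.0 and 6.84 in SAHA, against 6.91, 6.80 and 6.98 in saline, again with overlap.

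**Figure D4:**
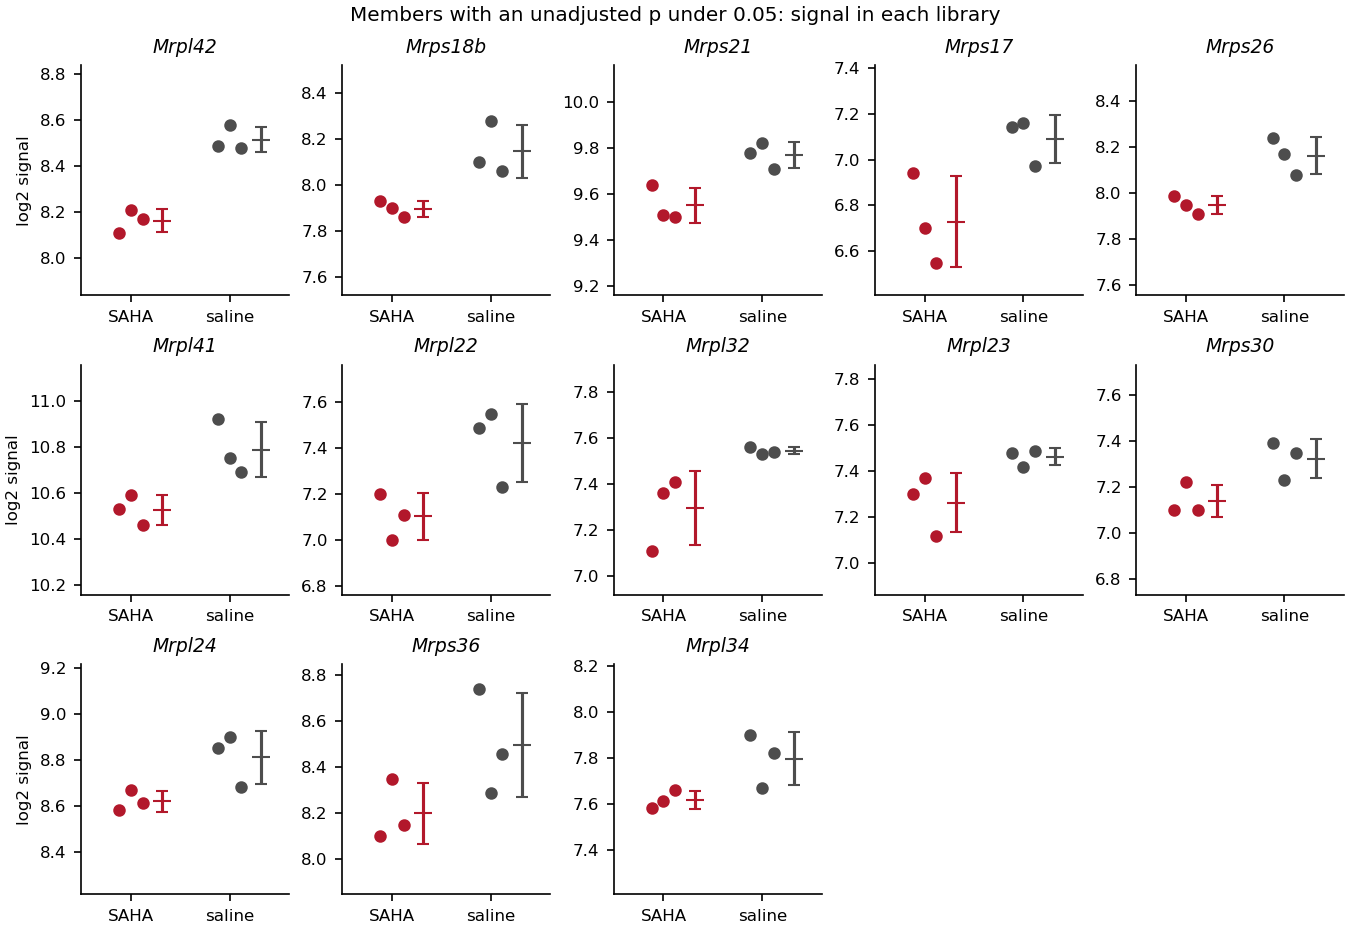
Log2 signal in each library of the 13 members with an unadjusted p under 0.05, SAHA in red and saline in grey, with the mean and SD of each group (n = 3) beside the points; each panel spans 1 log2 unit around its own mean. In 12 of the 13 panels every SAHA point lies below every saline point, and in Mrps36 the groups overlap.

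Among small-subunit proteins with no bacterial counterpart, 6 of 9 (66.7%) were lower, with a median of -0.0325 and 1 gene (11.1%) at an unadjusted p under 0.05. Of genes of the same signal 61.0% were lower, and 7.31% were lower at that threshold. The 1 gene was Mrps26, at 7.99, 7.95 and 7.91 in SAHA, against 8.24, 8.17 and 8.08 in saline. Its groups did not overlap, and it differed by -0.21 (SE 0.063, adjusted p = 0.178 in limma). Mrps27, a pentatricopeptide repeat protein and the dimmest probe set of the set, was at 6.71, 6.79 and 6.66 in SAHA, against 6.89, 6.88 and 6.81 in saline, also without overlap. Mrps22, mutated in a human mitochondrial disease, was at 8.82, 8.92 and 8.91 in SAHA, against 9.0, 8.85 and 8.91 in saline. Mrps34, needed for small-subunit stability in mice, was at 7.59, 7.5 and 7.86 in SAHA, against 7.64, 7.52 and 7.66 in saline. Both overlapped, with intervals of -0.18 to 0.12 for Mrps22 and -0.19 to 0.27 for Mrps34. Mrps33, among the brightest probe sets of the set, was at 10.04, 10.16 and 10.17 in SAHA, against 10.23, 10.21 and 10.19 in saline, a small gap without overlap.

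A set of 3 genes, Mrps18a, Mrps18b and Mrps18c, descends from a single bacterial protein. Their products hold separate places on the mitochondrial ribosome, that of Mrps18a in the large subunit. Mrps18b was at 7.93, 7.90 and 7.86 in SAHA, against 8.10, 8.28 and 8.06 in saline, and differed by -0.25 (SE 0.074, adjusted p = 0.177 in limma). Mrps18a was at 8.68, 8.72 and 8.75 in SAHA, against 8.92, 8.80 and 8.84 in saline, and differed by -0.14 (SE 0.061, adjusted p = 0.296 in limma). Neither overlapped between the groups. Mrps18c was at 8.06, 8.20 and 8.18 in SAHA, against 8.45, 8.28 and 7.97 in saline, with overlap and a difference of -0.084 (95% interval -0.36 to 0.19), whose sign turned without saline replicate 1. The differences between the 3 genes were not tested.

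Mrps30, named for the small subunit and seated in the large one, was at 7.10, 7.22 and 7.10 in SAHA, against 7.39, 7.23 and 7.35 in saline, and differed by -0.18 (SE 0.070, adjusted p = 0.249 in limma). SAHA replicate 2 lay just under saline replicate 2. Mrps36 was at 8.10, 8.35 and 8.15 in SAHA, against 8.74, 8.29 and 8.46 in saline, and differed by -0.30 (SE 0.12, adjusted p = 0.264 in limma). Its groups overlapped, saline replicate 1 was the high library, and the difference was -0.17 without it. The other 10 members whose groups did not overlap, with an unadjusted p at or above 0.05, had differences from -0.14 to -0.075. Besides Mrps18a, Mrps27 and Mrps33 they were Mrps16, Mrpl13, Mrpl30, Mrpl46, Mrpl48, Mrpl52 and Mrpl57. The 17 members above zero had p-values of at least 0.318 before adjustment.

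By library, the lowest of the 6 values was in a SAHA library for 59 of the 77 genes, against 49.6% of all genes, and the highest in a saline library for 59, against 45.2% of all genes. SAHA replicate 1 was the lowest for 29 members, where it was the lowest for 21.3% of all genes. Saline replicates 1, 2 and 3 were the highest for 30, 24 and 5 members, where they were the highest for 20.6%, 13.1% and 11.6% of all genes. These shares of all genes were not matched for signal, while most members lay in brighter deciles, where more genes were lower in SAHA. For 8 members a second probe set was present, and both were lower for 7 of these. Beside Mrpl41, and named after their values were seen, the sizes parted in Mrpl27, where the brighter probe set differed by -0.050 and the dimmer one by -0.31, and in Mrpl51, where they differed by -0.11 and 0.080.

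Mitoribosomal proteins with other symbols were taken as a list beside the set. Of 6 listed symbols, 4 were found on the array under the symbol listed, and all 4 were lower, where 66.3% of genes of the same signal were. Dap3, the GTP-binding protein of the small subunit, was at 7.97, 7.94 and 8.00 in SAHA, against 8.28, 8.22 and 8.11 in saline, and differed by -0.24 (SE 0.065, adjusted p = 0.159 in limma). Ptcd3, a pentatricopeptide repeat protein of the small subunit, was at 8.21, 8.46 and 8.24 in SAHA, against 8.63, 8.44 and 8.50 in saline, with overlap. Its difference of -0.22 (SE 0.087) was -0.14 without saline replicate 1 and SAHA replicate 3. Chchd1 differed by -0.16 (SE 0.087), and by -0.0935 without saline replicate 2. Gadd45gip1 differed by -0.115 (SE 0.072), and by -0.045 without saline replicate 1 and SAHA replicate 3.

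Other genes of mitochondrial translation were not lower throughout. The mitochondrial aminoacyl-tRNA synthetases, which charge the tRNAs, had 7 of 16 genes lower and a median of 0.041. At an unadjusted p under 0.05, 0 were lower and 3 higher. The list lay near genes of the same signal, of which 45.5% were lower and 12.25% higher at that threshold, with a median decile difference of 0.040. Sars2, the seryl-tRNA synthetase, was at 7.04, 7.04 and 7.15 in SAHA, against 6.51, 6.83 and 6.76 in saline, a difference of 0.38 (SE 0.092, adjusted p = 0.138 in limma), and of 0.25 without saline replicate 1 and SAHA replicate 3. Lars2, the leucyl-tRNA synthetase, differed by 0.18 (SE 0.058). Under other scalings the sign of the synthetase median turned, to -0.0165 (quantile) and -0.018 (cyclic loess). Translation factors had 12 of 16 lower, where 57.95% of genes of the same signal were, and a median of -0.039. Among them were Mtrf1, a release factor, at -0.28 (SE 0.11), which was -0.17 without saline replicate 1, and Tsfm, an elongation factor, at 0.28 (SE 0.10).

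Factors of mitoribosome assembly and rRNA modification had 15 of 22 lower, with a median of -0.080 and 4 lower at an unadjusted p under 0.05. At the same signal 47.8% of genes were lower, and 6.43% were lower at that threshold. Mtg1, a GTPase of large-subunit assembly, was at 6.97, 6.82 and 6.94 in SAHA, against 7.26, 7.21 and 7.20 in saline, without overlap. It differed by -0.31 (SE 0.064, adjusted p = 0.12 in limma). Fastkd2, which binds the large ribosomal RNA, differed by -0.27 (SE 0.091). Factors of mitochondrial transcription and RNA handling had 14 of 16 lower, with a median of -0.099 and 3 lower at an unadjusted p under 0.05, among them Tfb2m, a transcription initiation factor, at -0.27 (SE 0.085) and Fastkd1 at -0.225 (SE 0.069). For this list the shares at the same signal were 58.2% and 7.69%. The medians of the assembly and transcription lists were -0.079 and -0.10 after cyclic loess normalization. Nuclear regulators of mitochondrial genes had 6 of 10 lower and a median of -0.0205, with 0 at an unadjusted p under 0.05, where 50.5% of genes of the same signal were lower. Nrf1 differed by -0.13 (SE 0.075), or -0.060 without saline replicate 3, and Gabpa by -0.125 (SE 0.073).

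As a gauge of mitochondrial content, 15 genes of the outer membrane, import, matrix chaperones and carriers were followed. The median difference was -0.070, and 0 genes were at an unadjusted p under 0.05. The count of lower genes was 12, or 80%, near the 78.1% found at matching signal. All 3 SAHA values lay below all 3 saline values for 5 genes, or 33.3%, against 20.7% at matching signal. Vdac2, an outer membrane channel, differed by -0.135 (SE 0.062) and Tomm22, an import receptor, by -0.15 (SE 0.073), or -0.099 without SAHA replicate 1. The list's median was -0.013 after cyclic loess normalization, while that of the mitochondrial ribosomal proteins was -0.045. The part of mitochondrial content in the shift of the ribosomal proteins was not tested.

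Many of the mitochondrial ribosomal protein genes start beside another gene. In the RefSeq table, 24 of the 68 matched members, or 35.3%, had the start of a protein-coding gene on the opposite strand within 1000 bases upstream, against 8.5% of all protein-coding genes in the table. Of the neighbours, 23 were measured and 11 were lower in SAHA, near the 47.1% of all genes. At an unadjusted p under 0.05, 6 of the 23 were lower and 4 of the 23 higher, where 5.56% and 11.9% of all genes were. These shares of all genes were not matched for signal, and the neighbours counted include Mrpl46 and Mrps11, which are also members. The median difference of the neighbours was 0.0080, where that of the members beside them was -0.060. The neighbours discussed here were chosen after their values were seen. Mrps12 shares its start region with Sars2, whose difference of 0.38 stood beside 0.013 for Mrps12. Mrpl41 and Pnpla7, a lysophospholipase, differed by -0.26 and 0.24 (SE 0.067), with an adjusted p of 0.159 for Pnpla7 in limma. Mrps18b and Ppp1r10, a phosphatase regulator, differed by -0.25 and 0.0080 (SE 0.059). The starts lay 935 bases apart for Mrpl41 and Pnpla7 and 756 for Mrps18b and Ppp1r10, against 147 for Mrps12 and Sars2. The difference within a pair was not tested.

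Other pairs were lower on both sides. Mrpl47 and Ndufb5, a subunit of respiratory complex I, differed by -0.205 (SE 0.125) and -0.22 (SE 0.063), Mrpl32 and Psma2, a proteasome subunit, by -0.25 and -0.11 (SE 0.080), and Mrps27 and Ptcd2, a mitochondrial RNA-binding protein, by -0.14 and -0.25 (SE 0.11). Leaving out 1 library moved several of these. Without SAHA replicate 1 Mrpl47 was at -0.079, Mrpl32 at -0.16 and Psma2 at -0.029, and without saline replicate 1 Ptcd2 was at -0.13. Mrpl43 and Twnk, the mitochondrial DNA helicase, differed by -0.088 and -0.072. In 1 pair both genes were members: Mrpl46 and Mrps11 differed by -0.075 and 0.022.

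**Figure D5:**
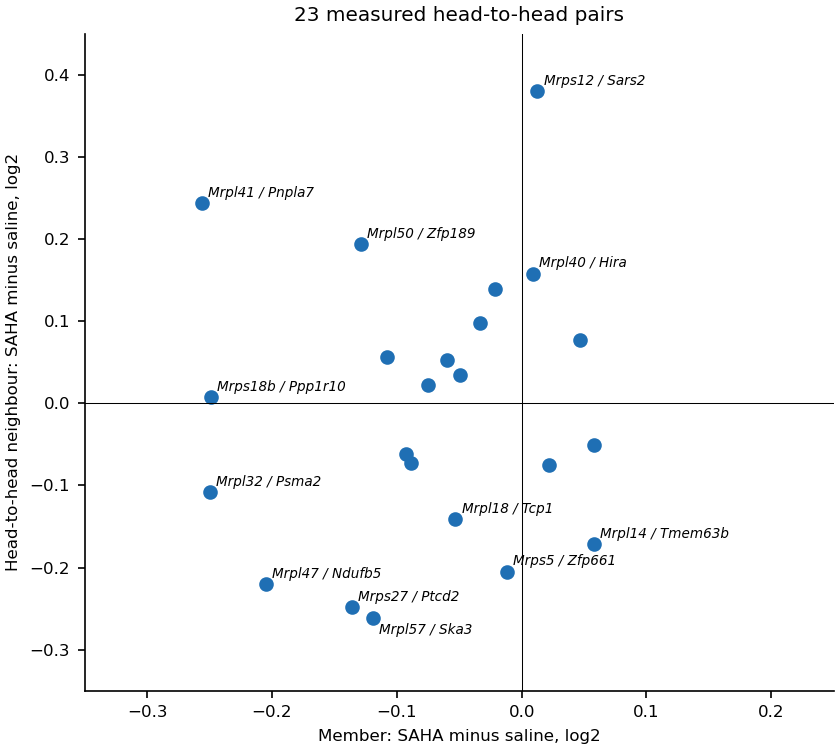
Difference of the neighbour gene against that of the member for the 23 members with a measured head-to-head neighbour, both SAHA minus saline on the log2 scale; the pair of Mrpl46 and Mrps11 appears once from each side, and names are given where the neighbour had an unadjusted p under 0.05 or the member was below -0.15. Points lie above and below zero for the neighbours, with Sars2 at 0.38 and Ndufb5 at -0.22, while most members are below zero.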

How the data were processed

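Arrays of 6 libraries were used, 3 from SAHA-treated and 3 from saline-treated mice, grouped by the sample titles. Per the labels' protocols, total RNA went through NuGEN whole-transcript amplification and biotin labelling. Per the submitters' processing notes, the authors used Affymetrix Expression Console and RMA, with versions not given in the sources used here. The deposited values are log2 signals per probe set, from 1.43 to 14.2 over 35556 probe sets. RMA as usually run sets arrays to a common distribution, so an overall change in signal would not be seen. Scanned intensities, dates and batches were not used here.

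In the platform annotation 21789 probe sets pair with 1 symbol. Each of 19938 genes was represented by its brightest such probe set, and 8 members had more than 1. A probe set shared by Ccdc142 and Mrpl53 was left out. The groups were compared by a two-sided moderated test over all genes (limma 3.58.1, lmFit and eBayes, under R 4.3.3), with Benjamini-Hochberg adjustment at 0.05 and no filter on dim probe sets. Precision is limited by how few arrays there are, and the members' median SE was 0.071.

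Signal was matched over 10 bins of mean signal. Values in every library are given for up to 10 members per direction of smallest p without overlap, for a set chosen by role, and for the brightest and dimmest 2, and 0 members met the first rule upwards. Of each other list, the 2 genes of smallest p are named. The members and lists were chosen with earlier results of these data known. Alternatives were other normalizations, filters, probe set rules, variance models, array weights, a plain two-sample test, a replicate block and the removal of libraries. All columns of the table were used.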

Additional observations from a re-analysis of the deposited data

How the results depend on the processing

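The median difference of the mitochondrial ribosomal proteins was negative in all 18 alternatives, between -0.097 and -0.053 when 1 library was left out, and the median relative to genes of the same signal lay between -0.057 and -0.028. After median centring the median was -0.11, that of the small subunit -0.071, and 21 genes had an unadjusted p under 0.05. The share of all genes lower at that threshold was then 10.15%, and the median of all genes was -0.028. With every probe set counted, the small-subunit median was -0.079 and the large minus small difference 0.00051. The count of 13 genes at an unadjusted p under 0.05 was 20 with a trended variance, 20 with its robust form, ran from 7 to 17 with 1 library left out, and was 4 without saline replicate 1 and SAHA replicate 3, where 4 libraries remained and the large minus small difference was -0.0091. With 1 library left out that difference ran from -0.0245 to 0.023, and the small-subunit median from -0.10 to -0.040. In limma, 1 gene, Mrpl42, passed the adjusted threshold with a variance trend. Mrpl42 also passed under the robust fit and after genes under the median signal were dropped, while 0 members passed in the other settings. Over all alternatives, the lowest adjusted p among the other members named was 0.0797, for Mrpl41 in limma with a variance trend. The cause of these changes was not tested. With the replicate number as a replicate block the count was 10 and 0 passed the adjusted threshold. The numbers share only a label: deviations of same-numbered libraries correlated at -0.105, -0.0792 and 0.015.

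Of 59 genes named, 11 turned sign in at least 1 alternative. After quantile normalization Mrpl10 was at 0.026, Mrpl11 at 0.025, Mrps22 at 0.024, Mrps11 at -0.023 and Mrpl27 at 0.025. After cyclic loess normalization they were at 0.018, 0.018, 0.026, -0.021 and 0.010 in that order. After median centring Mrps12 was at -0.026, Mrps34 at -0.00018, Mrps11 at -0.017 and Ppp1r10 at -0.031. Without saline replicate 1 and SAHA replicate 3, Mrpl10 was at 0.020, Mrpl11 at 0.020, Mrps12 at -0.043, Mrps18c at 0.0090 and Mrps34 at -0.051, while Mrps11 kept its sign at 0.066. With 1 library left out, the ranges that crossed zero were -0.082 to 0.0069 for Mrpl10, -0.091 to 0.019 for Mrpl11, -0.028 to 0.081 for Mrps12, -0.23 to 0.019 for Mrpl44, -0.22 to 0.026 for Mrps18c, -0.067 to 0.0073 for Mrps22, -0.066 to 0.11 for Mrps34, -0.026 to 0.064 for Mrps11, -0.19 to 0.00097 for Mrpl51 and -0.023 to 0.030 for Ppp1r10.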

Other observations

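Markers of other cell types were followed as a description. Mature oligodendrocyte markers, 5 genes, had library medians of -0.19, -0.215 and 0.14 in SAHA replicates 1 to 3, against -0.041, 0.027 and 0.029 in saline replicates 1 to 3, relative to the saline mean. Their median difference was -0.0475, and 0.0092 after cyclic loess normalization, with the sign turned. Astrocyte markers had 4 of 5 lower with a median of -0.055 (0.0024 after cyclic loess), and microglia markers 3 of 5 with -0.092. The shares lower at the same signal were 69.1% for astrocyte and 57.9% for microglia markers. Neuronal markers had 2 of 5 lower with a median of 0.059, where 82.6% of genes of the same signal were lower. By library, the neuronal median was 0.047, 0.044 and 0.047 in SAHA replicates 1 to 3, against -0.012, 0.020 and -0.0084 in saline replicates 1 to 3, without overlap. The markers did not go 1 way: for 3 of the 5 every SAHA value lay above every saline value, and for 1 every SAHA value lay below. Over all genes these shares were 13.6% above and 10.4% below. For genes of the same signal the share below was 22.0%, and the share above was not matched for signal. Choroid plexus markers had 1 of 4 lower with a median of 0.088, and striatal markers 1 of 3 with 0.12. For genes of the same signal 29.9% and 52.9% were lower, and the median decile difference for the choroid plexus markers was 0.099. The part of these cell types in the shift of the mitochondrial ribosomal proteins was not tested.

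In the promoters of the members the CCAAT box, CCAAT, was found in 38.2%, against 42.3% of protein-coding genes, and the Sp1 box, GGGCGG, in 50%, against 49.2%. The Sp1 box was in 65.4% of small-subunit and 40.5% of large-subunit promoters. The median GC content was 58.5% in member promoters and 56.3% in protein-coding genes.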
